A study of Mus musculus with 2 samples.

Results

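*Mgmt* and 9 genes of nucleotide excision repair were followed through single GFP-sorted cells, labelled as cones, from a mouse model of cone dystrophy, with and without the histone demethylase inhibitor GSK-J4. The 10 genes were *Mgmt*, *Ercc1*, *Ercc4*, *Ercc5*, *Xpa*, *Xpc*, *Rpa2*, *Rfc2*, *Cul4b* and *Ddb1*. They were selected on measured values of these same 2 libraries, in which *Mgmt*, *Ercc4*, *Rpa2*, *Cul4b* and *Rfc2* had the higher mean level in the GSK-J4 library, so that their differences are given as a description and support nothing. The means of *Ercc5*, *Xpc* and *Ddb1* were higher there too, though *Xpc* and *Ddb1* were too sparse to read. Of the 10, 9 had a row in the deposited counts and 8 were kept by the filter on genes, out of 17774 deposited and 15947 kept genes. No row carried the symbol *Ercc1*, which was not analysed here, and the row of *Xpa* held 0 counts in each of the 82 untreated and 64 GSK-J4 wells.

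Both libraries came from C57BL/6 mice that carried the Pde6c cpfl1 mutation and, from the Chrnb4.eGFP line, enhanced GFP under the *Chrnb4* promoter, which served to sort cones. The untreated library came from uninjected animals at P24. The GSK-J4 library came from animals given 10 µM GSK-J4 into the vitreous at P14 and collected 10 days later, also at P24 by the labels, although its cell names hold the word adult. A sham-injected library was not analysed here, so injection and drug cannot be told apart. GSK-J4 inhibits the Jumonji enzymes that take methyl groups off lysine 27 of histone H3, a mark of silent chromatin. GFP-positive cells were sorted 1 per well into 96-well plates, with 1 plate and 1 library for each condition. Treatment and plate cannot be told apart either, and no difference between the libraries has a replicate check or a p-value.

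After the filter, 82 untreated wells held 1113424 counts, with a median of 8118 per well (range 860 to 98250), and 64 GSK-J4 wells held 208578, with a median of 2336 (range 420 to 15371). The median well had 1793 genes and 0.952% mitochondrial counts in the untreated and 948.5 genes and 0.0146% in the GSK-J4 library, and the part of these gaps in the results was not tested. The 11 cone markers took 2.59% of the untreated and 0.213% of the GSK-J4 counts. In the GSK-J4 library only 14 of 64 wells had any cone marker count, 6 of the 11 markers were found, and *Opn1sw*, *Gngt2*, *Cngb3*, *Pde6c* and *Guca1a* had 0 counts, whereas every untreated well had 6 or more cone marker counts. Cone markers were thus at 0 in most GSK-J4 wells, whose cells the labels name cones, and the units are called wells here. Markers of 8 other cell types took no more than 0.349% of the counts of either library, the highest being rod markers in the untreated library. The libraries shared 54 well positions, and no 2 wells held identical counts.

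MGMT is the repair protein of direct reversal. It takes the methyl group from O6-methylguanine onto itself and is used up in doing so. Nucleotide excision repair instead cuts out a stretch of the damaged strand. XPC, or the DDB1 complex with the ubiquitin ligase scaffold CUL4, finds the lesion, and the helicases of TFIIH open the DNA. XPA and the single-strand binding protein RPA then hold it, XPF (encoded by *Ercc4*) with ERCC1 cuts on the 5′ side and XPG (encoded by *Ercc5*) on the 3′ side, and the clamp loader RFC, the clamp PCNA, a polymerase and a ligase close the gap. In non-dividing neurons such as photoreceptors, the transcription-coupled branch of this pathway is known for clearing lesions from active genes.

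The promoters of *Mgmt*, *Ercc4* and *Rpa2*, the 3 genes with the highest log-folds over all wells, are printed here. For the log-fold, counts per 10000 were averaged over wells, 1 was added, and the natural log in untreated was taken from that in GSK-J4. Each promoter is shown as the 150 bases that end before the earlier of the RefSeq and GENCODE starts. They were read from RefSeq (GRCm38.p6) on the plus strand, at chr7:136894436-136894585 for *Mgmt*, chr16:13109534-13109683 for *Ercc4* and chr4:132768182-132768331 for *Rpa2*. Capitals mark each CG, the site of DNA methylation, which reads the same on both strands.
Mgmt: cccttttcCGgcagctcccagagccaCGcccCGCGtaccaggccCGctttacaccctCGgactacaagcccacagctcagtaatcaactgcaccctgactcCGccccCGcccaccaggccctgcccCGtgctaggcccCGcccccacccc
Ercc4: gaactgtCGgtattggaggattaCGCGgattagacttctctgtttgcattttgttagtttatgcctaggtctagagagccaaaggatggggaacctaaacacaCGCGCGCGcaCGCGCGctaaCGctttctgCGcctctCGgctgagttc
Rpa2: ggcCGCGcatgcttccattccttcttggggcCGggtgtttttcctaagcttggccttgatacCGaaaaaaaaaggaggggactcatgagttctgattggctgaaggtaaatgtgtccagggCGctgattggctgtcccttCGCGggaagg
These stretches held 10, 13 and 7 CGs, against a median of 4 over the 150 bases before the RefSeq start of 32851 promoters. Those 150 bases were not moved to an earlier GENCODE start. At least as many CGs as in *Mgmt* were held by 28.8% of them, as in *Ercc4* by 20.3% and as in *Rpa2* by 37.9%. Neither DNA nor histone methylation was measured in these libraries, and the count of CGs is a description of the sequence.

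*Mgmt* had the highest log-fold of the 8 genes over all wells, and nearly all of its counts lay in 1 well. The gene (ENSMUSG00000054612.4) spans chr7:136894614-137130266 on the plus strand of GRCm38, with 2894 bp of exon in 235653 bp. In the untreated library *Mgmt* had 3 counts (95% exact Poisson interval 0.619 to 8.77), 1 in each of wells F05, H04 and D12, so that the lowest and the median well had 0 and the highest 1. In the GSK-J4 library it had 2206 counts (2115 to 2300.0), and the lowest and the median well had 1 and the highest, well D07, 2143. Between these extremes there was nothing, since each of the other 63 wells had exactly 1 count. A count was therefore found in 3 of 82 untreated wells (3.66%, exact Clopper-Pearson interval 0.761 to 10.3) and in 64 of 64 GSK-J4 wells (100%, 94.4 to 100). All these intervals are at 95% and cover counting error only, not the spread between animals, plates or wells.

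**Figure D1:**
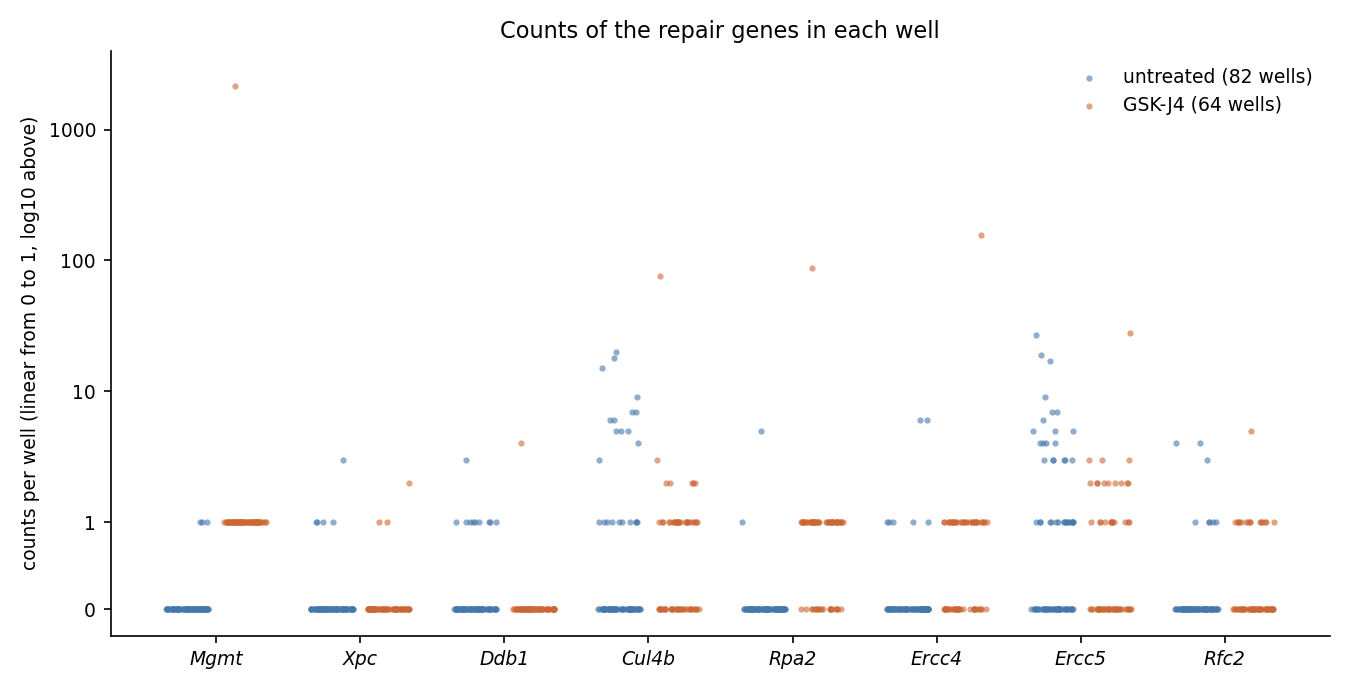
Counts of each repair gene in each well, untreated (82 wells, blue) and GSK-J4 (64 wells, orange), with 1 point per well on a scale that is linear from 0 to 1 and log10 above, and points spread sideways for sight only. *Mgmt* lies at 1 in 63 GSK-J4 wells and at 2143 in the last, and *Ercc4*, *Rpa2* and *Rfc2* also have a single GSK-J4 well above 1.

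Well D07 carried 97.1% of the *Mgmt* counts of its library, and *Mgmt* made up 18.8% of the 11419 counts of that well. The other 63 wells held between 420 and 15371 counts in total, a 36.6-fold range, without any change in the single *Mgmt* count. Scaled to 10000 counts, that 1 count stood for 0.651 to 23.8 with a median of 4.56, so the scaled level in these wells was set by the depth of the well alone. The 2 GSK-J4 wells removed for mitochondrial counts, A10 with 1914 counts and B03 with 562, also had 1 *Mgmt* count each, while the 3 removed untreated wells had 0. In the untreated library the 3 wells with a count were deep, with a median total of 37282 against 7874 in the wells without.

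Over the whole library *Mgmt* took 0.0269 per 10000 counts (0.00556 to 0.0787) in untreated and 106 (101 to 110.3) in GSK-J4 wells. The ratio of these rates was 3925 (1341 to 19049). Without the top well of each library, 2 counts stood against 63 and the ratio was 172 (45.7 to 1451). The log-fold was 3.60 with all wells and 2.04 without the top wells. It was 2.11 on columns 1 to 6 of the plates and 4.20 on columns 7 to 12, where D07 lies. On the GSK-J4 plate *Mgmt* had 33 counts in 33 wells of columns 1 to 6 and 2173 in 31 wells of columns 7 to 12.

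**Figure D2:**
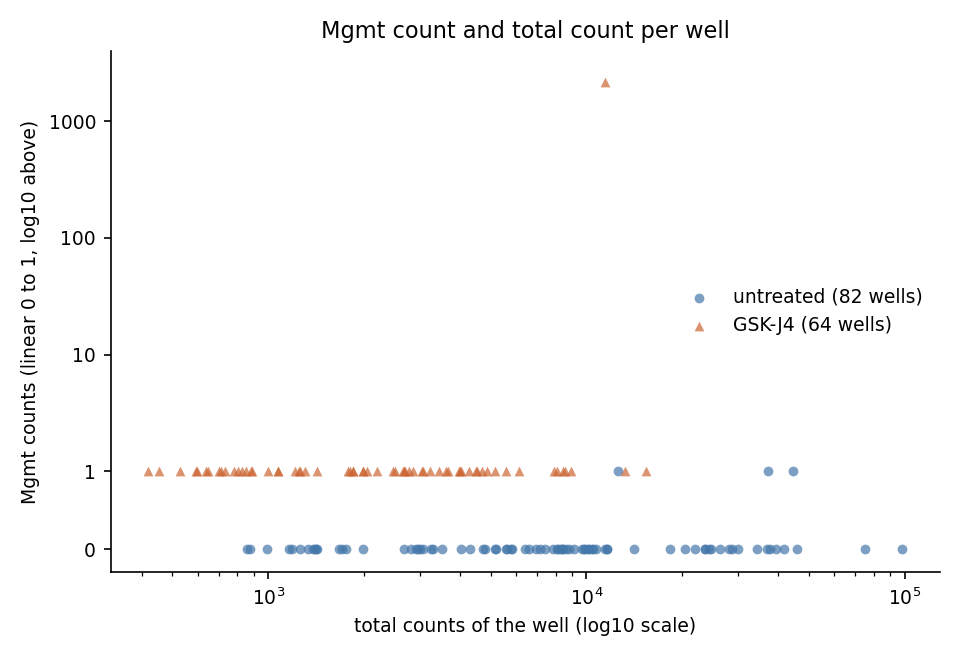
*Mgmt* counts (linear from 0 to 1, log10 above) against the total counts of the well (log10 scale), with 1 point per well, untreated (82 wells) and GSK-J4 (64 wells). The GSK-J4 wells form a flat line at 1 count from 420 to 15371 total counts, with 1 well at 2143.

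Of the selected recognition genes, *Cul4b* had the higher mean level in GSK-J4, as it was selected to have, and *Xpc* and *Ddb1* were too sparse to read. *Cul4b*, a scaffold of the ubiquitin ligase that works with DDB1, spans chrX:38533274-38576196 on the minus strand. It had 120 counts (99.5 to 143) in 23 of 82 untreated wells (28.0%, 18.7 to 39.1), from 0 through a median of 0 to 20. In GSK-J4 it had 114 counts (94.0 to 137) in 32 of 64 wells (50%, 37.2 to 62.8), from 0 through a median of 0.5 to 76 in well D06. Of those 32 wells 25 had exactly 1 count, 7 had more, and the second highest had 3, whereas 13 of the 23 untreated wells had more than 1. Outside D06 the GSK-J4 wells, at 3 counts or fewer, lay within the untreated range of 0 to 20. Per library count *Cul4b* was 5.07 times higher in GSK-J4 (3.89 to 6.61) and 2.09 times (1.40 to 3.07) without the top wells. The log-fold was 0.84, and 0.61 without the top wells.

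*Xpc*, the damage sensor of global genome repair, on chr6:91489305-91515888 (minus strand), had 7 counts in 5 untreated wells (0 to 3 per well, median 0) and 4 in 3 GSK-J4 wells (0 to 2, median 0). The ratio of 3.05 (0.655 to 12) had an interval that held 1, and the log-fold was 0.23. *Ddb1*, the adaptor that joins the lesion-binding subunit to CUL4, on chr19:10605327-10629819 (plus strand), had 12 counts in 10 untreated wells (0 to 3, median 0) and 4 in GSK-J4, all of them in well D08. Its ratio was 1.78 (0.418 to 5.87) and its log-fold 0.062, which became -0.19 without the top wells and 0 with median-ratio size factors, and 0.53 in the thinned wells. A difference in *Xpc* or *Ddb1* was not detectable at this depth. Exons of *Ddb1* overlap *Tkfc* on the other strand over 328 bp, and it is not stated whether counting used the strand.

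*Rpa2* and *Ercc4*, which act at the stage of verification and incision, followed *Mgmt* in log-fold over all wells and had the same shape. *Rpa2*, the middle subunit of the single-strand binding protein, spans chr4:132768332-132778752 on the plus strand. It had 6 untreated counts (2.20 to 13.1), 5 in well H02 and 1 in another, and 0 in the other 80 wells. In GSK-J4 it had 130 counts (109 to 154) in 44 of 64 wells (68.8%, 55.9 to 79.8), from 0 through a median of 1 to 87 in well C11. Each of the remaining 43 wells had exactly 1 count, and C11 held 66.9% of the counts of the gene. The rate was 116 times higher in GSK-J4 (51.7 to 321). Without the top wells 1 count stood against 43, a ratio of 230.2 (39.2 to 9301), and the log-fold moved from 1.92 to 1.43.

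*Ercc4*, the nuclease subunit of the 5′ incision, spans chr16:13109684-13150617 on the plus strand. It had 17 untreated counts (9.90 to 27.2) in 7 wells (8.54%, 3.50 to 16.8), from 0 through a median of 0 to 6. In GSK-J4 it had 189 (163 to 218) in 33 wells (51.6%, 38.7 to 64.2), from 0 through a median of 1 to 157 in well E02. The other 32 wells with *Ercc4* had exactly 1 count, and E02 held 83.1% of the total. Without the top wells 11 untreated counts stood against 32, and the ratio moved from 59.3 (36.1 to 104) to 15.3 (7.53 to 33.7) and the log-fold from 1.97 to 1.06. On columns 1 to 6, where E02 lies, the log-fold was 2.47, above the 2.11 of *Mgmt* there, and on columns 7 to 12 it was 0.91.

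*Ercc5*, the nuclease of the 3′ incision, on chr1:44147744-44181260 (plus strand), had a different shape. It had 158 counts (134 to 185) in 37 untreated wells (45.1%, 34.1 to 56.5), from 0 through a median of 0 to 27. In GSK-J4 it had 67 (51.9 to 85.1) in 25 wells (39.1%, 27.1 to 52.1), from 0 through a median of 0 to 28 in well F05. More than 1 count was found in 13 of those 25 wells, the second highest holding 3. The groups overlapped almost wholly. The ratio was 2.26 (1.67 to 3.03), and 1.62 (1.11 to 2.34) without the top wells. The log-fold of 0.41 became 0.31 without the top wells, 0.16 with median-ratio size factors and 0.14 on columns 7 to 12 alone.

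*Rfc2*, a subunit of the clamp loader, on chr5:134581366-134601805 (plus strand), had 16 counts (9.15 to 26) in 8 untreated wells (9.76%, 4.31 to 18.3), from 0 through a median of 0 to 4. In GSK-J4 it had 20 (12.2 to 30.9) in 16 wells (25%, 15 to 37.4), of which 15 had exactly 1 count and D01 had 5. The ratio was 6.67 (3.29 to 13.8), and 6.71 (2.93 to 15.7) without the top wells. The log-fold of 0.59 became 0.50 without the top wells and 0.13 after thinning, when each library kept only 2 counts. Exons of *Rfc2* overlap *Lat2* on the other strand over 952 bp, so reads of both genes may be mixed if strand was not used.

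The shape of 1 high well over a floor of single counts was not particular to the repair genes. Among the 808 genes found in 25% or more of GSK-J4 wells, 165 (20.4%) had exactly 1 well above 1 count, and so did 4 of the 6 repair genes among them, *Mgmt*, *Ercc4*, *Rpa2* and *Rfc2*. Most of the counts (over 50%) lay in 1 well for 31.9% of those genes, and for *Mgmt*, *Ercc4*, *Rpa2* and *Cul4b*. The same held for 9.08% of the 2643 genes found in 25% or more of untreated wells. In the untreated library 0 of 2643 genes found in as large a share of wells had exactly 1 well above 1 count (0%), with *Cul4b* and *Ercc5* in this set. Among genes found in 25% or more of the wells after thinning to an equal depth, the shape was seen in 36 of 166 GSK-J4 genes (21.7%) and 0 of 235 untreated genes.

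The high wells were 8 different wells for the 8 genes. In D07, which had 2143 counts of *Mgmt*, *Ercc5* had 2 counts, *Ercc4*, *Rpa2*, *Rfc2* and *Cul4b* had 1 each, and *Xpc* and *Ddb1* had 0. Well E02, with 157 counts of *Ercc4*, had 1 each of *Mgmt*, *Rpa2* and *Cul4b* and 0 of the others. C11, the well with 87 *Rpa2* counts, had 2 of *Ercc5*, 1 each of *Mgmt*, *Ercc4* and *Cul4b* and 0 of the rest. D06, with 76 counts of *Cul4b*, had 1 each of *Mgmt*, *Ercc4*, *Ercc5*, *Rpa2* and *Rfc2*. In the GSK-J4 library the top well of each repair gene thus had at most 2 counts of any other. In the untreated library well H02 was the top well of both *Ercc5*, with 27 counts, and *Rpa2*, with 5. Cone marker counts were 0 in D07, E02 and C11, 1 in D06 and 37 in F05.

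A count in every GSK-J4 well was found for 19 genes in all. Of these only *Mgmt* and *Hcar2*, a receptor for hydroxy-carboxylic acids that was named after its values were seen, had a single well above 1 count, and 12 had more than 1 count in at least 60 wells. *Hcar2* had 646 GSK-J4 counts, 583 of them in well C02, and 21 untreated counts.

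*Rpa2*, *Ercc4*, *Cul4b*, *Ercc5* and *Rfc2* were found more often in deeper wells, whereas *Mgmt* was found in all. The GSK-J4 wells were divided by total counts into 22 wells of 420 to 1263, 21 of 1307 to 3433 and 21 of 3631 to 15371. *Mgmt* was at 100% in each of these groups. *Rpa2* was found in 36.4%, 76.2% and 95.2%, *Ercc4* in 27.3%, 47.6% and 81%, and *Cul4b* in 18.2%, 57.1% and 76.2%. *Ercc5* was found in 9.09%, 33.3% and 76.2%, and *Rfc2* in 4.55%, 19.0% and 52.4%. The median total of wells with *Rpa2* was 3144 against 887 without it, and for *Ercc4* 3668 against 1077.

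To set both libraries at 1 depth, 867 counts (the 10th percentile of the totals) were drawn from each well, and 1 untreated and 14 GSK-J4 wells that held fewer were left out. *Mgmt* was then found in 0 of 81 untreated wells, which allows a share of up to 3.70% at 3 counts (Clopper-Pearson upper limit 4.45%), and in 23 of 50 GSK-J4 wells (46%, 31.8 to 60.7). *Ercc4* was found in 0 of 81 and in 11 of 50 (22%, 11.5 to 36.0), and *Rpa2* in 1.23% (0.0313 to 6.69) and 22% (11.5 to 36.0). *Cul4b* was at 7.41% (2.77 to 15.4) and 28% (16.2 to 42.5). In this draw the intervals of the libraries did not overlap for any of these 4 genes, which were selected as higher in GSK-J4. The share of all genes with such a gap was not computed, so nothing is read from it. For *Cul4b* this gap depended on the setting. Its shares were 5.47% and 20.9% in the mean over all possible draws and 2.44% and 12.9% at 500 counts. On columns 1 to 6 they were 5.13% and 45.8%, but on columns 7 to 12 only 9.52% and 11.5%. *Ercc5* moved from the higher share in untreated wells before thinning to 8.64% (3.55 to 17) against 14% (5.82 to 26.7) in GSK-J4 after it, with overlapping intervals both times. *Rfc2* was at 2.47% and 4%, *Xpc* at 1.23% and 2% and *Ddb1* at 0% and 2%. Outside the top well, the 22 other thinned *Mgmt* wells had 22 counts, so the thinned levels are those of single counts and only the shares can be read.

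**Figure D3:**
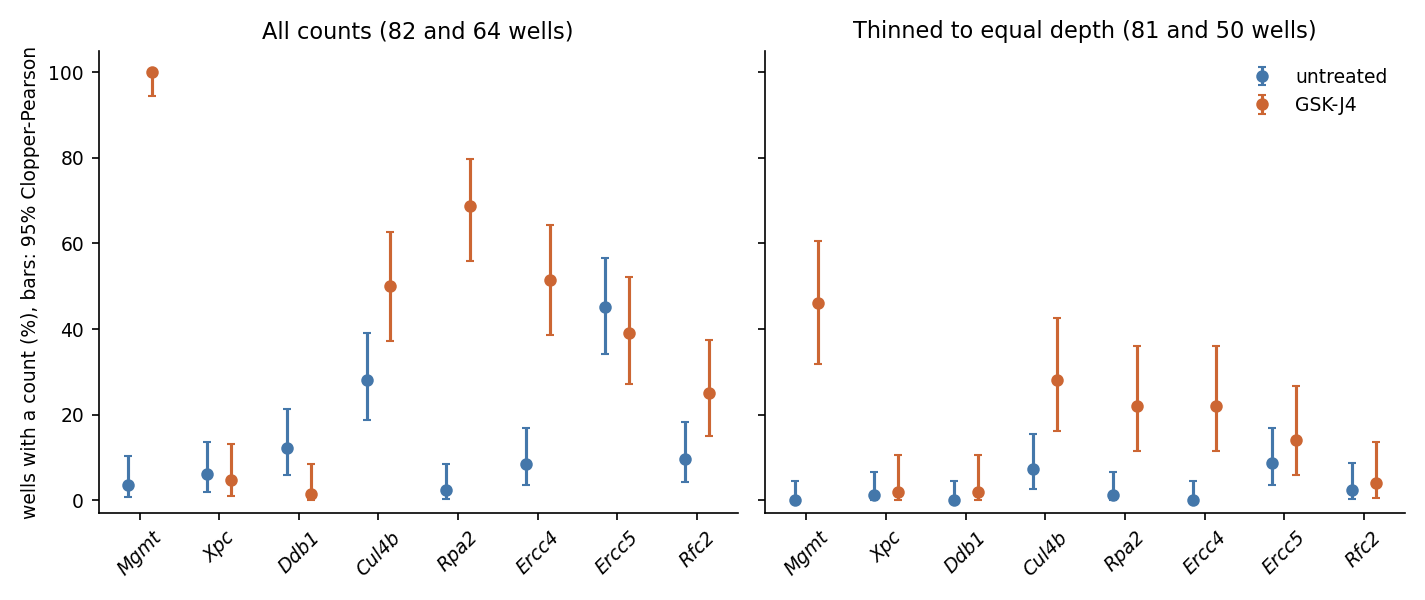
Percent of wells with a count of each gene, with 95% Clopper-Pearson bars, for all counts (left, 82 untreated and 64 GSK-J4 wells) and after thinning to 867 counts (right, 81 and 50 wells). Thinning brings *Mgmt* in GSK-J4 from 100% to 46% and reverses the order of the *Ercc5* shares, with overlapping bars.

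The repair genes were also counted together in each well. These genes were selected on values of the same libraries, so a higher number in GSK-J4 wells is a description and supports nothing. The same number for other genes was not computed. Untreated wells held a median of 1 of the 8 genes (mean 1.16, range 0 to 6), with none in 35 wells and 3 or more in 12 (14.6%). GSK-J4 wells held a median of 3 (mean 3.41, range 1 to 6), with none in 0 wells and 3 or more in 42 (65.6%). Leaving out *Mgmt*, the means were 1.12 and 2.41, and 6 GSK-J4 wells held none of the others. After thinning, the means were 0.210 and 1.40, with 3 or more genes in 0 untreated and 8 GSK-J4 wells (16%).

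Every repair gene in a GSK-J4 well was found together with *Mgmt*, since *Mgmt* was in all of them. *Ercc4* and *Rpa2* shared 27 GSK-J4 wells, which was 81.8% of the 33 *Ercc4* wells and 61.4% of the 44 *Rpa2* wells. *Rpa2* was in 17 of the 31 wells without *Ercc4* (54.8%). The shared wells were deep, with a median total of 4276 counts, and the part of depth in the pairing was not tested. In untreated wells the pair was found once, and after thinning in 4 GSK-J4 and 0 untreated wells. Other pairs in GSK-J4 were *Rpa2* with *Cul4b* in 26 wells, *Rpa2* with *Ercc5* in 21, *Ercc4* with *Cul4b* in 19, and *Ercc4* with *Ercc5* and *Ercc5* with *Cul4b* in 17 each. *Ercc5* with *Cul4b* was the most frequent of the untreated pairs, in 18 wells. *Rpa2* was in all 14 GSK-J4 wells with a cone marker count and in 30 of the 50 without, and *Ercc4* in 7 and 26, while the median totals of these wells were 3839.5 and 1826.5.

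The genes whose scaled level followed *Mgmt* most closely over the 64 GSK-J4 wells, by Pearson's r of the log level among 807 genes, were *Smtnl1* (r 0.53), *N4bp1* (0.52), *Slc7a7* (0.41), *Kcnh7* (0.41) and *Ube2n* (0.37). *N4bp1*, *Slc7a7* and *Ube2n* had 380, 99 and 137 counts in a single well, and without D07 their r was 0.25, 0.18 and 0.10. *Smtnl1* had 67 counts, at least 1 in every well and at most 2, and its r was 0.99 without D07. *Kcnh7* was in every well too, with an r of 0.72. Without D07 the *Mgmt* level had an r of 1 with the level that 1 count gives at the depth of each well, which *Mgmt* has by its counts. Over the 64 wells *Smtnl1* and *Kcnh7* had an r of 0.99 and 0.72 with that level of 1 count. For *N4bp1*, *Slc7a7* and *Ube2n* it was 0.098, 0.078 and 0.0057. *Ercc4*, *Rpa2*, *Rfc2*, *Cul4b* and *Ercc5* had an r between -0.25 and -0.10 with *Mgmt*, and between -0.42 and -0.10 without D07. These wells share 1 library and differ in depth.

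Log-folds of the repair genes were set against every gene found in 10% or more of the wells of either library, the limit being 0.3 as in the methods of the study. Of the 7682 such genes 20.4% were above 0.3 and 24% below -0.3, with a median of -0.0050. Of the 7 repair genes among them 6 were above and 0 below, *Ddb1* lying within the limit, and *Xpc* did not enter. The genes were selected on these values, so nothing is read from this count. Without the top well of each gene in each library, 15% of all genes were above and 21.4% below, and the repair genes were again 6 and 0. Of the 1568 genes above 0.3, 70.5% stayed above it without their top wells, as did all 6 repair genes, *Ercc5* by the least at 0.31. After thinning, 23.5% of all genes were above and 26.7% below, and 6 and 0 of the repair genes, with *Ddb1* entering and *Rfc2* leaving. Poisson intervals of the library rates lay apart with GSK-J4 higher for 22% of all genes and lower for 24%, and for 6 and 0 of the 7 repair genes. With median-ratio size factors the median of all genes moved to -0.14, 8.14% of them were above 0.3 and 34% below, and 5 and 0 of the repair genes.

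**Figure D4:**
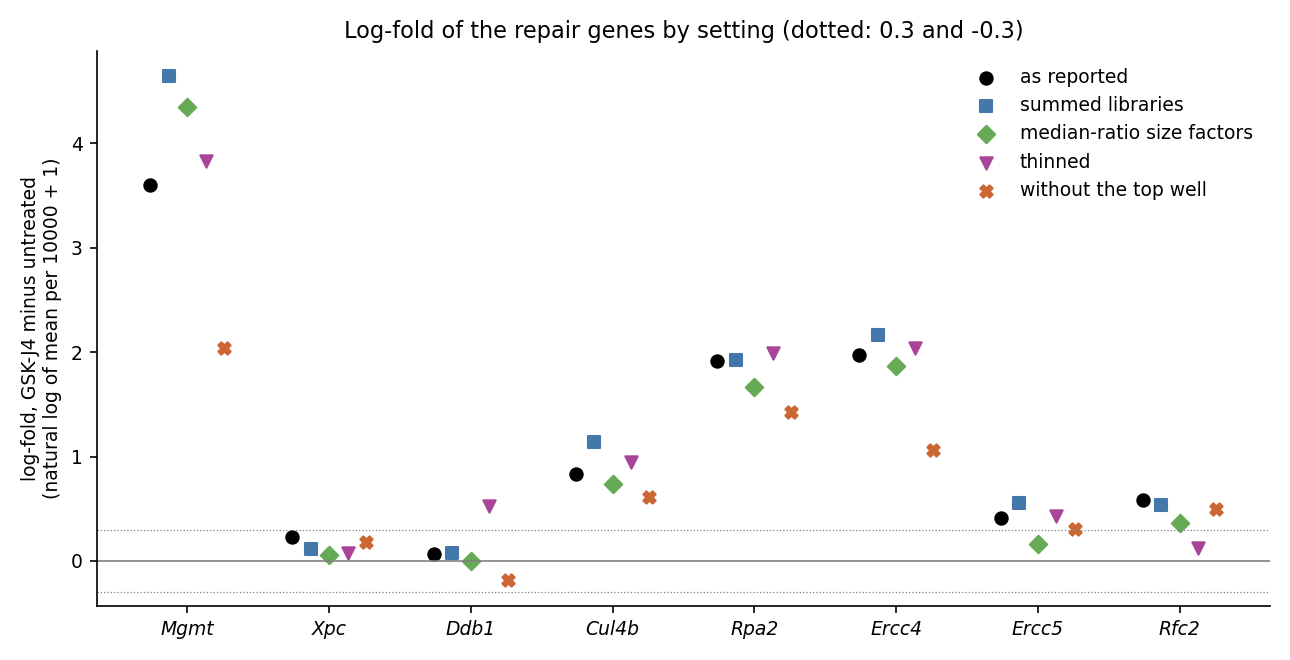
Log-fold (natural log of the mean per 10000 plus 1, GSK-J4 minus untreated) of the 8 repair genes under 5 settings, with dotted lines at 0.3 and -0.3. *Mgmt* falls from 3.60 to 2.04, *Ercc4* from 1.97 to 1.06 and *Rpa2* from 1.92 to 1.43 without the top well, while *Ddb1* changes sign, from 0.062 to -0.19.

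The nucleotide excision repair pathway as a whole was spread to both sides of 0. Of 48 listed genes 45 had a row, 43 were kept and 22 were in at least 10% of the wells of either library. Of these 22, 6 were above 0.3 and 3 below, and the median was -0.070. All genes had 20.4% above and 24% below. With median-ratio size factors the list had 4 above and 6 below, where 8.14% of all genes were above and 34% below, their median being -0.14. Without the selected genes 16 remained, of which 1 was above and 3 below, with a median of -0.17. The 1 above was *Pole*, the catalytic subunit of DNA polymerase epsilon, with 13 untreated and 10 GSK-J4 counts and a log-fold of 0.33.

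By step, 1 of 6 recognition genes was above 0.3 (*Cul4b*) and 1 below, 0 and 1 of 4 TFIIH genes, 3 and 0 of 4 verification and incision genes (*Rpa2*, *Ercc4* and *Ercc5*), and 2 and 1 of 7 gap filling genes (*Rfc2* and *Pole* above). All of these genes above 0.3 apart from *Pole* were selected on values of these libraries, so nothing is read from the step they fall in. The single transcription-coupled gene in the count, *Xab2*, lay within the limit at 0.19. The lowest log-fold of the pathway, -1.07, was that of *Rbx1*, the RING subunit of the CUL4 ligase, with 220 counts in 53 untreated wells and 2 in 2 GSK-J4 wells. *Pcna*, the sliding clamp, was at -0.85 with 209 and 15 counts, 14 of the 15 in 1 well. *Gtf2h5*, the smallest TFIIH subunit, was at -0.63 with 141 and 17 counts, 14 of the 17 in 1 well, and *Mnat1*, of the kinase module of TFIIH, was at -0.28 with 24 and 1. Log-folds of other partners of the selected genes are given with their untreated and GSK-J4 counts. *Cul4a* was at 0.28 (10 and 11). *Rpa1* was at -0.012 (11 and 1) and *Rpa3* at -0.061 (17 and 1). *Rfc1* was at -0.068 (12 and 3) and *Rfc3* at -0.25 (32 and 0). *Rfc4* was at -0.079 (26 and 1) and *Rfc5* at 0.15 (6 and 7). With 1 added before the log, levels this low can give log-folds near 0. Such values do not show that a gene was unchanged.

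**Figure D5:**
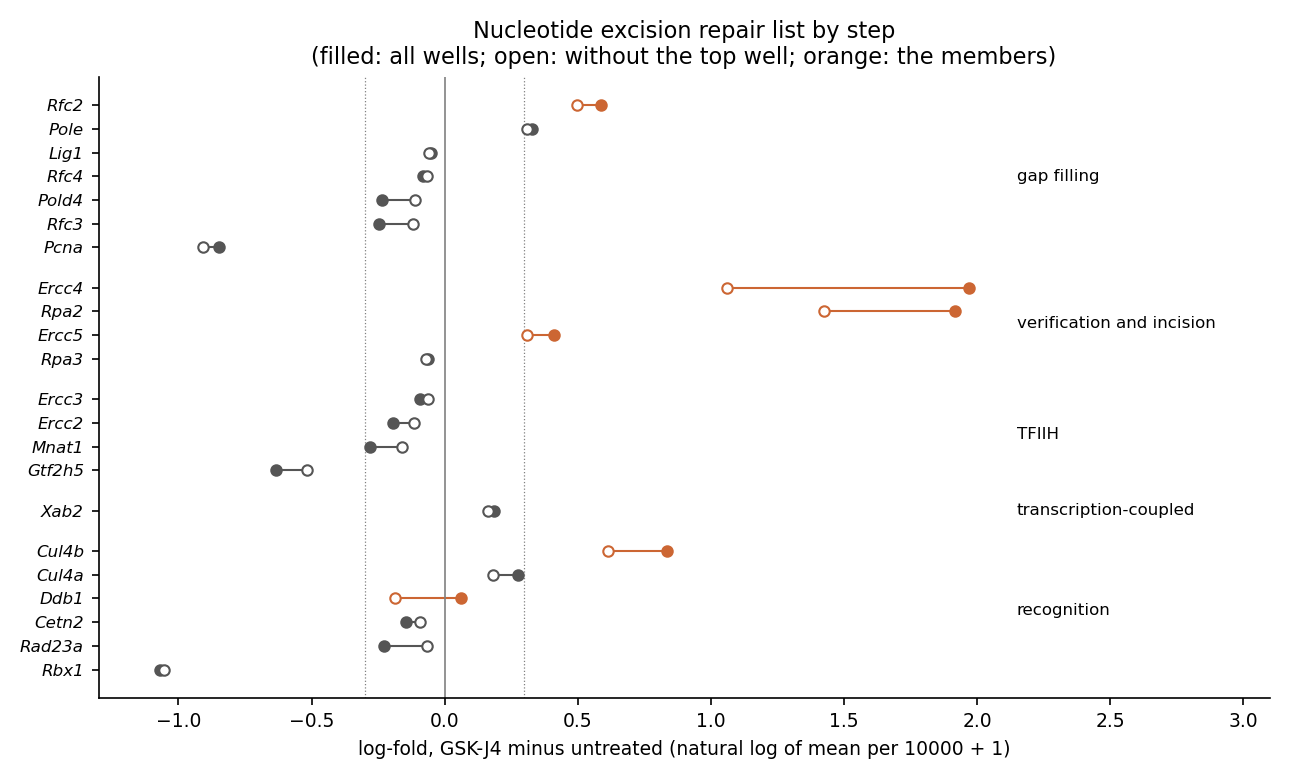
Log-fold (natural log of the mean per 10000 plus 1, GSK-J4 minus untreated) of the 22 nucleotide excision repair genes in at least 10% of the wells of either library, by step, with all wells (filled) and without the top well of each library (open). The selected genes are orange, dotted lines mark 0.3 and -0.3, and 6 genes lie above 0.3 and 3 below, and 4 and 6 with median-ratio size factors, a scaling that moves the median of all genes to -0.14.

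The counts of the other repair lists are small and are to be set beside the 20.4% of all genes above 0.3 and 24% below, and nothing particular to a list is read from them. *Mgmt* was the only 1 of 3 direct reversal genes in at least 10% of wells, and *Alkbh2* and *Alkbh3* had 4 and 9 untreated and 2 and 1 GSK-J4 counts. In base excision repair 2 of 5 genes were above 0.3 and 2 below, from *Parp1*, the poly(ADP-ribose) polymerase, at 0.46 (901 and 261 counts, and 0.081 without the top wells) to the uracil glycosylase *Smug1* at -0.51 (140 and 9). In mismatch repair 1 of 3 was above and 1 below, *Msh3* at 0.60 (4 and 12 counts) and *Pms2* at -0.38 (51 and 1, and -0.21 without the top wells). Of 7 double-strand break repair genes 2 were above and 1 below, the ends being *Prkdc* at 0.38 (7 and 11 counts) and *Xrcc4* at -0.43 (29 and 2). Of 6 crosslink repair genes 1 was above and 1 below. *Slx4*, a nuclease scaffold, was at 0.82 (143 and 54 counts) and 0.38 without the top wells, and *Mus81* at -0.39 (43 and 6) and -0.055 without them. Among DNA replication and cycling genes 2 could be counted, *Mcm2* at 0.63 (11 and 19 counts) and *Rrm1* at 0.25 (46 and 15). The low counts of most of these genes limit each of these values.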

How the data were processed

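Single GFP-positive cells, labelled as cones, were sorted into 96-well plates and sequenced by an adapted SMARTseq2 and MARS-seq method. The authors assigned reads to wells by plate ID, barcode and primer, mapped them in CLC Genomics Workbench v.20, collapsed duplicates by UMI (8 nt) and position, counted genes with featureCounts on Gencode M17 and added the counts of both ends. The deposited values are these counts, whole and not normalized. The sources name the genome as GRCh38, a human build number, and the coordinates here are those of GENCODE M21 on GRCm38. Groups came from the treatment label.

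Here genes in fewer than 3 cells were removed (1827), as were cells under 200 genes or over 5% mitochondrial counts, which left 82 of 85 and 64 of 66 cells with 1113424 and 208578 counts. Scaling to 10000, log-folds, intervals and thinning (seed 1) used Python 3.11.15, pandas 2.3.3, numpy 2.4.6, scipy 1.17.1 and matplotlib 3.10.9. The intervals were exact Poisson, Clopper-Pearson and the exact conditional interval of a rate ratio, all at 95% and for counting error only. Log-folds were checked on simulated counts without the 1 that is added here. Log-folds without the top well were checked on a constructed table, and thinning on the real counts. The intervals were not checked in this way. With 1 library per condition no test was run. ComBat and a doublet caller were not applied. Alternatives were the scaling, the pseudocount, the filters, the thinning depth, the plate side, the limit and leaving out top wells.

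The repair genes and lists were chosen with earlier results of these data known. Named were the 10 listed genes, each gene of the nucleotide excision repair list above 0.3 and its 4 lowest, the highest and lowest gene of each other repair list among genes in at least 10% of wells, and the 5 genes most like *Mgmt*. *Hcar2*, *Cul4a*, *Rpa1*, *Rpa3*, *Rfc1*, *Rfc3*, *Rfc4*, *Rfc5*, *Xab2*, *Alkbh2* and *Alkbh3* fall outside this rule and were chosen after their values were seen.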

Additional observations from a re-analysis of the deposited data

How the results depend on the processing

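Under the alternatives run, no repair gene with a log-fold above 0.3 took the opposite sign. Log-folds ranged over the alternatives from 2.03 to 5.74 for *Mgmt*, 0.91 to 3.62 for *Ercc4*, 1.42 to 3.86 for *Rpa2*, 0.57 to 1.20 for *Cul4b*, 0.14 to 0.63 for *Ercc5*, 0.13 to 1.64 for *Rfc2*, -0.024 to 1.08 for *Xpc* and -0.19 to 0.53 for *Ddb1*. The highest of each apart from *Ddb1* came with a pseudocount of 0.1, and setting each count above 1 to 1, chosen after seeing the data, gave 2.03 for *Mgmt*. Of the 7 repair genes 6 were above 0.3, and 5 with median-ratio size factors or on columns 7 to 12 and 4 at a limit of 0.7, with 0 below under each alternative. Of all genes 8.14%, 22.1% and 4.63% were above at these settings, against 20.4% at 0.3 over all wells. The repair genes were selected on these values. In the nucleotide excision repair list the 3 genes below became 6 with median-ratio size factors, 12 with a pseudocount of 0.1, 5 with a minimum of 500 genes per cell and 6 on columns 1 to 6. The shares of all genes below at these settings were 34%, 40.9%, 23.9% and 25.5%, against 24% as reported. The 6 genes above became 3 at a limit of 0.7 and 1 without the selected genes, where 4.63% and 20.4% of all genes were above. The share of GSK-J4 wells with *Mgmt* was 100% with no thinning against 46% thinned, and 32.3% at 500, 50% at 2000 counts and 37.9% over all draws. The mean number of repair genes per GSK-J4 well was 1.40 thinned against 3.41. Of 228 alternative values 67 moved beyond a set margin and 161 did not. The margin was counting error for log-folds and shares, and 1.5 times for counts of genes. For the mean number of repair genes per well it was the standard deviation over wells, a wide margin. The causes were not tested. No library could be left out and no paired analysis was possible because each condition had 1 library. *Xpc* and *Ddb1* had 7 and 12 counts in untreated and 4 each in GSK-J4 wells, so that little can be read from either.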
